A study of Mus musculus with 21 samples.

Results

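Peritoneal B-1a cells of WT and TET2-KO mice were compared by RNA sequencing over the genes that do not encode immunoglobulins. Of the 56953 genes in the count files, 55879 had a GENCODE gene type outside the immunoglobulin classes and were taken as members, 431 were immunoglobulin genes, and 643 had no type and were left out. The comparison used 8 of the 21 libraries of the study, 4 labelled B-1a WT and 4 labelled B-1a TET2-KO. Mice of both groups were C57BL/6. The TET2-KO mice carried a global knockout in which exons of the catalytic region of Tet2 are deleted, so the loss was not limited to B cells. Cells of the peritoneal cavity were sorted as B cells that were IgD-lo, CD23-lo, B220-lo and CD5+, and RNA was sequenced from ultra-low input libraries. The labels give no age and do not say that the libraries of a group came from separate mice, so p-values measure only the spread between these libraries.

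B-1a cells are a self-renewing B cell population of the body cavities that makes natural IgM, and they differ from the follicular B-2 cells that respond to protein antigens with T cell help. TET2 is a dioxygenase that oxidizes 5-methylcytosine in DNA, most of which stands in CpG dinucleotides, and so takes part in the removal of methylation at enhancers and promoters. It is a frequent target of mutation in clonal hematopoiesis and in lymphoid cancers.

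The libraries labelled WT 1 and WT 2 went against their B-1a label. Fcer2a encodes CD23, a B-2 marker on which the sort gated, and its level was 754 CPM (counts scaled to 1000000 per library) in WT 1 and 16.9, 25.3 and 25.3 CPM in WT 2, WT 3 and WT 4. In the TET2-KO B-1a libraries it was 12.1, 16.6, 8.26 and 4.52 CPM, whereas the TET2-KO B-2 libraries ranged from 484 to 834 CPM. Cd5, the defining surface marker of B-1a cells, was at 4.76 and 1.51 CPM in WT 1 and WT 2, at 18.9 and 21.5 CPM in WT 3 and WT 4, and at 15.3 to 20.7 CPM in the TET2-KO libraries. The library labelled B-1b WT 2 held Fcer2a at 598 CPM as well, and the library labelled B-2 WT 1 held it at 24.2 CPM. Values against all 4 WT libraries are therefore set beside values against WT 3 and WT 4 alone, and a gene is said to hold where the fit without WT 1 and WT 2 kept the sign of its log2 fold change with an unadjusted p under 0.05.

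The summed level of the 10 B-2 markers was 7088 and 3560 CPM in WT 1 and WT 2, 3076 and 2896 CPM in WT 3 and WT 4, and 1691 to 2903 CPM in the TET2-KO libraries. The 15 B-1 markers summed to 3203 CPM in WT 1 and to between 6234 and 8169 CPM in the other 3 WT and all TET2-KO libraries. Erythroid markers, mainly hemoglobin, summed to 1576, 892, 10.8 and 265 CPM in WT 1 to WT 4 and to at most 28.9 CPM in the TET2-KO libraries. Macrophage markers, mainly Lyz2, ranged from 5072 CPM in TET2-KO 4 to 29190 CPM in WT 1 and overlapped between the groups. The T and NK cell markers reached at most 78.9 CPM, with Cd3e at 4.27 CPM or less. Cd3g was higher, at 9.84, 5.22, 35.4 and 49.5 CPM in WT 1 to WT 4 and at 34.7, 17.1, 12.5 and 21.5 CPM in TET2-KO 1 to 4. Its log2 fold change was -0.22 against all WT libraries and -0.99 against WT 3 and WT 4 (edgeR's unadjusted p = 0.0295), and it held. Total counts lay between 15937009 and 24152518, genes with a count numbered 18858 to 19113 in WT 1, WT 2 and TET2-KO 4 and 26267 to 28140 in the other 5 libraries, and olfactory receptors, best known from sensory neurons, held 7.33 and 11.7 CPM in WT 1 and WT 2 against 72.4 to 309 CPM in the other 6. In bulk samples fewer cells of a type and less RNA per cell cannot be told apart, and the part of these differences in the results below was not tested.

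The first question was which genes outside the immunoglobulin loci differed between TET2-KO and WT B-1a cells. A single gene, Gm2619, passed an adjusted p of 0.05 among 13640 members tested with edgeR's quasi-likelihood test and Benjamini-Hochberg adjustment, which is 0.00733% of them. The other 42239 members had too few counts to be tested. At an unadjusted p under 0.05, 505 members lay higher (3.7%) and 439 lower (3.22%) in TET2-KO cells. Every TET2-KO library stood above every WT library for 338 members (2.48%) and below for 325 members (2.38%). Against WT 3 and WT 4, 0 of 15025 members passed edgeR's test with Benjamini-Hochberg adjustment, with a smallest adjusted p of 0.052, and 384 had an unadjusted p under 0.05, of which 143 lay higher (0.952%) and 241 lower (1.6%). In that comparison of 4 libraries with 2, 804 members (5.35%) had all TET2-KO libraries above WT and 990 (6.59%) had all of them below. Of the 944 members with an unadjusted p under 0.05 against all WT libraries, 212 held without WT 1 and WT 2, 86 higher and 126 lower, which is 22.5% of the 944 and 55.2% of the 384.

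DESeq2, the tool of the study, made more calls on the same counts. It called 41 members higher (0.221%) and 52 lower (0.28%) among the 18552 to which it gave an adjusted p. Of these 93, 84 held in the edgeR fit against WT 3 and WT 4, beside 22.5% of the 944 members above. This count is no support, since the 93 were called on the same TET2-KO, WT 3 and WT 4 libraries. Run without WT 1 and WT 2, DESeq2 called 11 members higher (0.0597%) and 36 lower (0.195%). The 25 genes common to both lists were 26.9% of the first and 53.2% of the second. Since the 2 tools differ in these counts, the genes below are given with edgeR's values. The DESeq2 call is given beside only some of them, so a gene without it may still have been called. Pdcd1lg2, Ccr6, Srms, Ctse and Tubb3, among others, were called by DESeq2 in both runs.

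Gm2619, a long noncoding RNA gene at chr1:85286380-85305006 on the minus strand (GRCm39), rose in TET2-KO B-1a cells. Its level was 1.66, 6.39, 4.36 and 6.16 CPM in WT 1 to WT 4 and 51.8, 32.6, 26.3 and 44.3 CPM in TET2-KO 1 to 4. The groups did not overlap, and the lowest TET2-KO library lay above every WT library, WT 3 and WT 4 included. The log2 fold change was 3.06 (SE 0.40, edgeR's adjusted p = 0.0469), and against WT 3 and WT 4 it was 2.87 (SE 0.35, edgeR's adjusted p = 0.084, unadjusted p = 4.56e-05). Gm2619 therefore held without WT 1 and WT 2 before adjustment and not after it. Its adjusted p in edgeR was 0.0251 without WT 1 and lay above 0.05, at up to 0.124, when any of the other 7 libraries was left out, with log2 fold changes from 2.77 to 3.25. DESeq2 called it with and without these libraries, at adjusted p-values of 2.47e-12 and 7.42e-13.

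Gm2619 lies among the Sp100 and Sp140 genes of chromosome 1, a family of nuclear body proteins that read chromatin marks, and several of its neighbors lay higher as well. Sp140l2, whose annotated span ends before Gm2619 begins, was at 6.56, 23.8, 23.9 and 29.1 CPM in the WT libraries and at 104, 78.0, 73.5 and 93.9 CPM in the TET2-KO libraries. No TET2-KO library of Sp140l2 came near the WT range. Its log2 fold change of 2.07 (SE 0.38, edgeR's adjusted p = 0.109) became 1.71 (SE 0.21, unadjusted p = 4.93e-05) against WT 3 and WT 4, so it held, and DESeq2 called it in both runs. The other neighbors were looked at after these values had been seen.

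Within 500 kb of the start of Gm2619, 27 members were tested, of which 23 lay higher and 4 lower. Of all 13640 members tested, 7230 lay higher. Of these 27, 5 had an unadjusted p under 0.05, all of them higher, beside 3.7% of all members, and 4 held against WT 3 and WT 4. Gm2619 and Sp140l2, whose values led to this region, are among both the 5 and the 4. The pseudogene Gm29284, whose span overlaps that of Sp140l2, had a log2 fold change of 3.43 (SE 0.50), which was 2.98 against WT 3 and WT 4 and held. The noncoding gene Gm16028 lies within the span of Sp140l2 on the other strand. It was at 0.195 CPM or less in WT and at 1.29 to 4.13 CPM in TET2-KO libraries, and it held with a log2 fold change of 5.30 against WT 3 and WT 4. The counts disregard strand, so Gm16028 cannot be told apart from transcripts of Sp140l2 on the same bases. Gm29284 lies on the same strand as Sp140l2, and their spans share only chr1:84970411-84970753. Sp140l1 had a log2 fold change of 0.72 (unadjusted p = 0.0312) and did not hold (0.47, unadjusted p = 0.0838). The family members on the other side of Gm2619 had log2 fold changes near 0, with 0.10 for Sp110, 0.07 for Sp140 and -0.17 for Sp100, and 0.03, 0.02 and 0.10 against WT 3 and WT 4. Genes here are near copies of each other, and fragments that aligned to several places were not counted, so the share of each copy is uncertain.

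**Figure D1:**
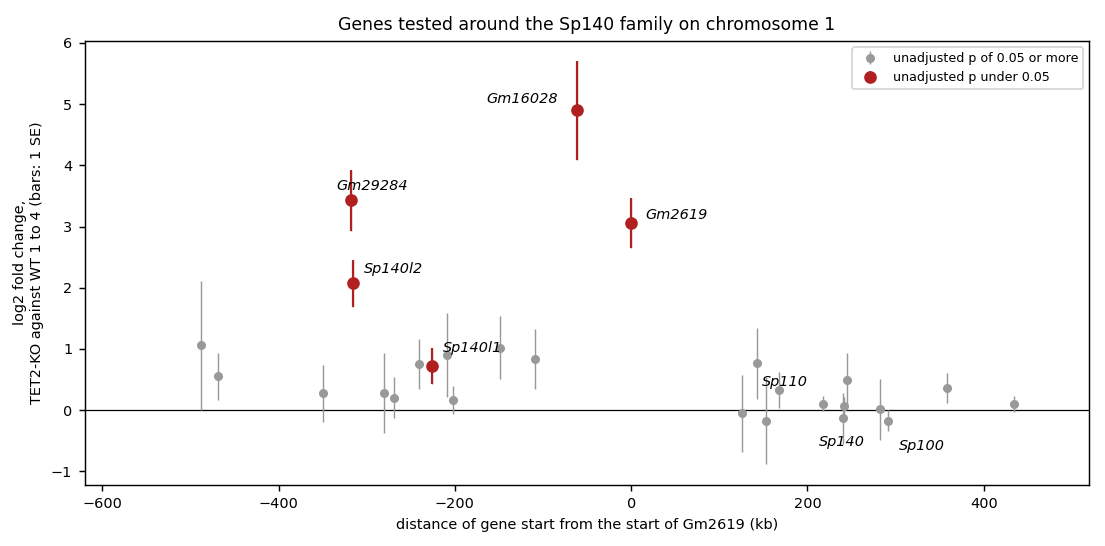
Log2 fold change of TET2-KO against WT 1 to WT 4 in B-1a cells (vertical axis, bars of 1 standard error) for the 27 tested genes within 500 kb of the start of Gm2619, by distance of their start in kb. Red points have an unadjusted p under 0.05, and the highest values, up to 4.90 for Gm16028, lie at Gm2619 and on its left side, while Sp110, Sp140 and Sp100 on the right lie near 0.

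In other libraries the pair showed the following levels. Gm2619 was at 38.6, 32.4 and 9.86 CPM in the TET2-KO B-1b libraries, at 2.35 to 9.08 CPM in the WT B-1b libraries and at 6.70 to 8.14 CPM in the TET2-KO B-2 libraries. Sp140l2 was at 63.4 to 66.3 CPM in TET2-KO B-1b, at 8.91 to 31.8 CPM in WT B-1b and at 12.7 to 19.8 CPM in TET2-KO B-2 libraries. The library labelled B-2 WT 1, which lacked Fcer2a at the level of B-2 cells, held 22.7 CPM of Gm2619 and 46.3 CPM of Sp140l2. The other WT B-2 library, WT 4, held 1.78 CPM of Gm2619 and 7.31 CPM of Sp140l2, below every TET2-KO B-2 library. Both genes thus lay lower in TET2-KO B-2 than in TET2-KO B-1 libraries of either subset.

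Beside Gm2619, the genes described next were the 12 protein-coding genes per direction with the smallest p among those with at least 5 CPM on average and no overlap between the groups. All 24 held against WT 3 and WT 4, but this count is no support, since separation from every WT library was part of the choice. None of them passed edgeR's adjusted p of 0.05.

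Among the genes that lay lower, Gimap7 had the smallest p. It encodes a small GTPase of the immunity-associated family, whose genes stand side by side on chromosome 6. Gimap7 was at 309, 233, 232 and 232 CPM in WT and at 130, 81.9, 108 and 115 CPM in TET2-KO libraries. WT 1 stood above the other WT libraries, which lay within 2 CPM of each other, and every TET2-KO library lay below all 4. Its log2 fold change was -1.21 (SE 0.17, edgeR's adjusted p = 0.0714) and -1.10 (SE 0.19, unadjusted p = 0.000513) against WT 3 and WT 4, and it held. DESeq2 called it in both runs.

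Of the 8 Gimap genes tested, 3 had an unadjusted p under 0.05, all lower, beside 3.22% of all members, and 2 of the 3 held. Gimap6 was at 1180 to 1434 CPM in WT and 780 to 883 CPM in TET2-KO libraries, with a log2 fold change of -0.62 that held at -0.60 against WT 3 and WT 4. Gimap1 was at -0.36 and did not hold (-0.31, unadjusted p = 0.0905). These 3 genes are neighbors. On one side of them lie Gimap8, Gimap9 and Gimap4, with log2 fold changes of 0.17, -0.05 and -0.19 against all WT libraries and 0.09, 0.02 and -0.33 against WT 3 and WT 4. On the other side lie Gimap5 and Gimap3, with -0.04 and -0.27 against all and -0.30 and -0.37 against WT 3 and WT 4. All 5 overlapped with WT 1 to WT 4 and had unadjusted p-values above 0.05 in both fits, but for Gimap4, Gimap5 and Gimap3 every TET2-KO library lay below both WT 3 and WT 4, as it did for 6.59% of all members.

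Epcam encodes EpCAM, an adhesion molecule best known from epithelia. It was at 50.7, 37.2, 106 and 59.0 CPM in WT and at 11.9, 11.2, 20.2 and 11.2 CPM in TET2-KO libraries. WT 3 and WT 4 were the highest of the 8, and the log2 fold change was -2.21 (SE 0.34, edgeR's adjusted p = 0.0888) against all and -2.60 (SE 0.32, unadjusted p = 4.33e-05) against these 2, so Epcam held and was larger without WT 1 and WT 2. DESeq2 called it in both runs.

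Slamf6, Pdcd1lg2, Ccr6 and Gpr34, which also lay lower, encode receptors or ligands of the cell surface. Slamf6, a SLAM family receptor that signals through the adaptor SAP, was at 297, 248, 168 and 186 CPM in WT and at 117, 87.0, 76.1 and 78.0 CPM in TET2-KO libraries. WT 1 and WT 2 were its highest libraries, and the log2 fold change was -1.32 (SE 0.22, edgeR's adjusted p = 0.0888) with them and -0.98 (SE 0.20, unadjusted p = 0.0014) without them, so it held at a smaller size. Pdcd1lg2 encodes PD-L2, a ligand of the checkpoint receptor PD-1 that marks many peritoneal B-1 cells. It was at 23.4, 62.2, 42.0 and 45.6 CPM in WT and at 13.6, 17.9, 14.1 and 8.92 CPM in TET2-KO libraries. Its log2 fold change was -1.67 (SE 0.31, edgeR's adjusted p = 0.109) and -1.69 (SE 0.26, unadjusted p = 0.000222) against WT 3 and WT 4, so it held at the same size. Its neighbor Cd274, which encodes PD-L1, had a log2 fold change of -0.02, and of -0.09 against WT 3 and WT 4, and overlapped between the groups.

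Ccr6, the receptor of the chemokine CCL20, was at 43.7, 25.3, 4.11 and 7.11 CPM in WT and at 0.837, 1.65, 0.554 and 0.390 CPM in TET2-KO libraries. It had the largest log2 fold change of the 24 genes, -4.55 (SE 0.81), but much of it came from WT 1 and WT 2, and it was -2.71 (SE 0.60, unadjusted p = 0.00218) without them and held. Gpr34, a receptor of lysophosphatidylserine, had the same pattern with -2.75 against all WT libraries and -1.73 against WT 3 and WT 4, and held. Both values lay beside a raised B-2 marker sum in WT 1 and WT 2, whose part in them was not tested. In other libraries Ccr6 was at 15.2 to 21.1 CPM in TET2-KO B-2 and at 1.53 to 6.32 CPM in TET2-KO B-1b. B-1b WT 1 to WT 4 held 2.53, 29.1, 18.8 and 23.5 CPM, and the 29.1 CPM belongs to WT 2 with its B-2 level of Fcer2a. The libraries labelled B-2 WT 1 and WT 4 held 5.06 and 48.9 CPM. B-1b WT 2, WT 3 and WT 4 thus lay within or above the TET2-KO B-2 range and below B-2 WT 4. Gpr34 was at 6.16 to 18.0 CPM in TET2-KO B-2, at 10.1 to 17.6 CPM in TET2-KO B-1b and at 7.84 to 42.8 CPM in the WT B-1b libraries, and these ranges overlapped.

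Signaling and other proteins completed the lower group. Lax1, a membrane adaptor that dampens antigen receptor signals, was at 113, 63.9, 67.8 and 68.7 CPM in WT and at 39.4, 41.5, 36.0 and 42.4 CPM in TET2-KO libraries, with log2 fold changes of -0.98 (SE 0.19) and -0.78 (SE 0.15, unadjusted p = 0.000761), and it held. Srms, a tyrosine kinase related to Src, was at 11.4 to 18.2 CPM in WT and 6.15 to 7.65 CPM in TET2-KO libraries, and its log2 fold change was -1.13 and, without WT 1 and WT 2, -1.40. Prr5, a subunit of the kinase complex mTORC2, had -0.70 and -0.67. Pglyrp1, a secreted protein that binds bacterial peptidoglycan, had -1.28 and -1.06, and Entrep3 had -1.78 and -1.002. All of these held against WT 3 and WT 4.

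**Figure D2:**
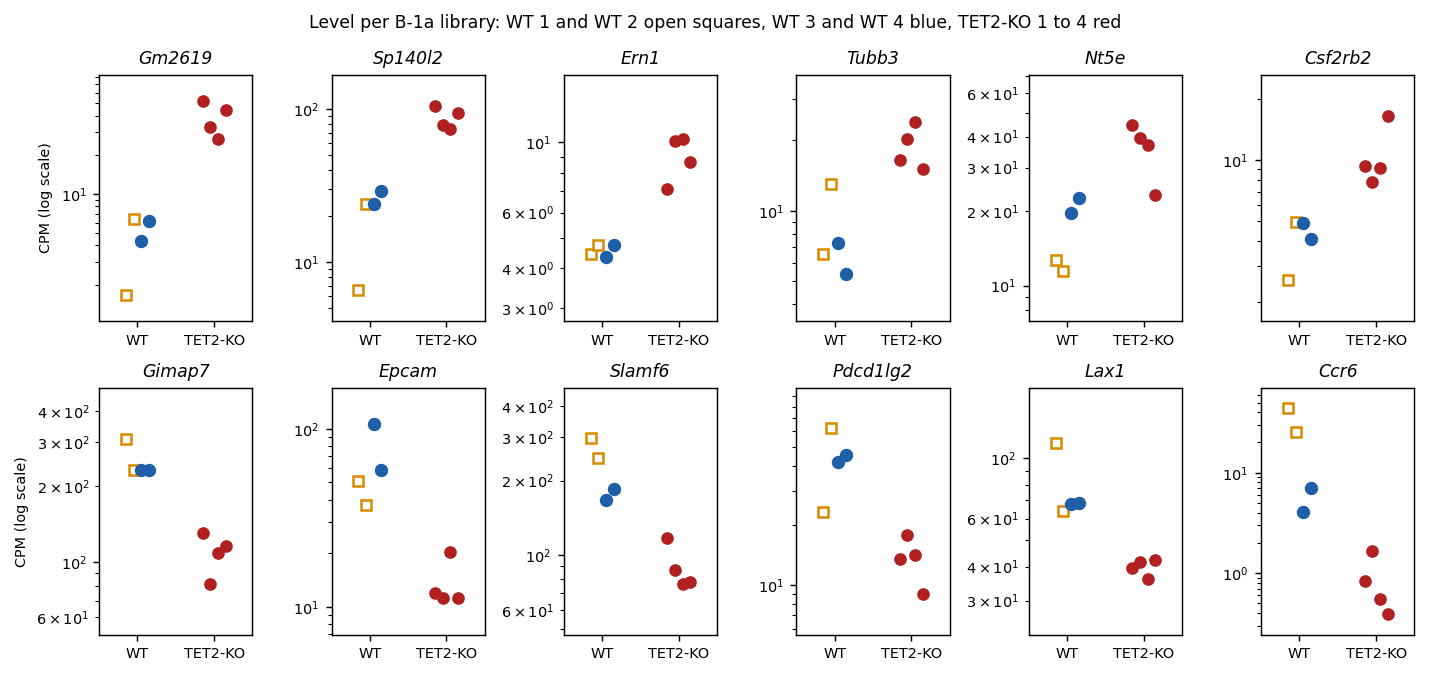
CPM of 12 genes in each B-1a library (log scale, each panel with its own range), 6 that lay higher (top row) and 6 that lay lower (bottom row) in TET2-KO cells. Open squares are WT 1 and WT 2, blue points WT 3 and WT 4, and red points TET2-KO 1 to 4, and in each panel the red points lie on 1 side of every WT library.

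Apart from Sp140l2, the genes that lay higher had log2 fold changes from 0.46 to 1.37. Ern1 encodes IRE1, the sensor of the unfolded protein response that splices Xbp1 mRNA, and was at 4.45, 4.74, 4.36 and 4.75 CPM in WT and at 7.11, 10.1, 10.2 and 8.65 CPM in TET2-KO libraries. All TET2-KO libraries lay above the narrow WT range, and the log2 fold change was 0.98 (SE 0.22, edgeR's adjusted p = 0.18) and 0.97 (SE 0.29, unadjusted p = 0.0103) against WT 3 and WT 4, so it held. Xbp1 itself was at 88.6 to 183 CPM in TET2-KO libraries and had a log2 fold change of -0.29 against all WT libraries and 0.21 against WT 3 and WT 4, with neither at an unadjusted p under 0.05.

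Nt5e encodes CD73, the ectoenzyme that makes adenosine from AMP. It was at 12.7, 11.5, 19.7 and 22.7 CPM in WT and at 44.5, 39.4, 37.1 and 23.3 CPM in TET2-KO libraries, and TET2-KO 4 stood next to the WT range. This gave a log2 fold change of 1.12 (SE 0.27) and 0.76 (SE 0.27, unadjusted p = 0.0248) without WT 1 and WT 2, and it held. Csf2rb2, the mouse beta chain specific for interleukin 3, was at 2.56 to 4.93 CPM in WT and 7.76 to 16.5 CPM in TET2-KO libraries, with log2 fold changes of 1.37 and 1.24, and held. Tubb3, a beta tubulin typical of neurons, was at 6.52, 12.98, 7.28 and 5.40 CPM in WT and at 16.4, 20.2, 23.8 and 15.1 CPM in TET2-KO libraries, and its log2 fold change of 1.23 (SE 0.29) was 1.57 (SE 0.28, unadjusted p = 0.000622) without WT 1 and WT 2 and held.

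The remaining higher genes also held. Grap2, the adaptor GADS, was at 25.6 to 37.7 CPM in WT and at 48.0 to 102 CPM in TET2-KO libraries, with log2 fold changes of 1.04 and 0.88. The helicase gene Recql5 had 0.83 and 0.64, and the corepressor gene Tle4 had 0.73 and 0.55. Tmem51 had 1.01 and 0.83, and Anxa2r1 had 1.23 and 0.93. Rp2, which encodes a regulator of the ciliary GTPase ARL3, had 0.56 and 0.65, and Plekha1, which encodes a protein that binds phosphoinositides, had 0.46 and 0.40.

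**Figure D3:**
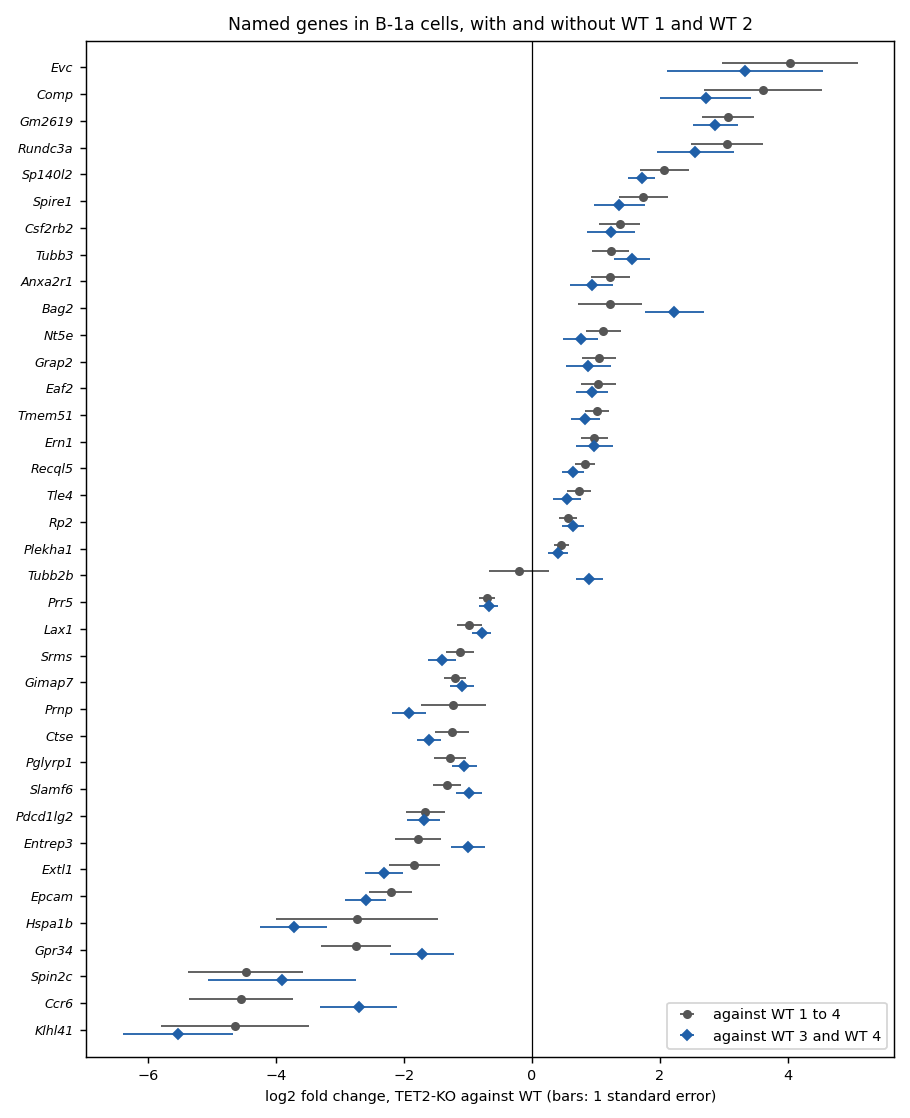
Log2 fold change of TET2-KO against WT in B-1a cells with 1 standard error for the reported genes outside the study's own list, against all 4 WT libraries (gray circles) and against WT 3 and WT 4 (blue diamonds). Ccr6 and Gpr34 move toward 0 without WT 1 and WT 2, Epcam and Ctse move away from it, and Tubb2b changes sign.

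A second choice was made against WT 3 and WT 4 alone, as the 8 protein-coding genes per direction with the smallest p and no overlap in those 6 libraries, whatever WT 1 and WT 2 held. Of these 16 genes, 6 have been described (Epcam, Pdcd1lg2, Srms, Sp140l2, Tubb3 and Rp2). In several of the others WT 1 or WT 2 stood on the side of the TET2-KO libraries.

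Bag2, a co-chaperone of Hsp70, was at 1.25 and 1.65 CPM in WT 3 and WT 4, at 3.01 and 5.81 CPM in WT 1 and WT 2 and at 4.57 to 10.1 CPM in TET2-KO libraries, with log2 fold changes of 2.23 against WT 3 and WT 4 and 1.22 against all, and it held. Eaf2, a partner of the elongation factor ELL, had 0.94 and 1.04 and held. Rundc3a, which encodes a protein with a RUN domain, was at 0.315 to 1.80 CPM in WT and at 5.49 to 16.8 CPM in TET2-KO libraries, did not overlap with any WT library, and held with 2.55 against WT 3 and WT 4 and 3.05 against all. Tubb2b did not hold, because its sign changed from 0.90 against WT 3 and WT 4 to -0.20 against all WT libraries, in which WT 2 had 63.1 CPM and no other library more than 29.4 CPM.

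Cathepsin E, a protease of the endosomal pathway encoded by Ctse, was at 24.7, 41.2, 53.4 and 62.0 CPM in WT and at 19.7, 20.2, 21.1 and 14.9 CPM in TET2-KO libraries. All WT libraries lay above the TET2-KO libraries, WT 1 least, and the log2 fold change was -1.61 (SE 0.19, unadjusted p = 3.12e-05) against WT 3 and WT 4 and -1.25 (SE 0.27, edgeR's adjusted p = 0.148) against all. Extl1, a glycosyltransferase gene of the exostosin family, had -2.32 and -1.84 and did not overlap with any WT library. Klhl41 was at 24.0 and 20.0 CPM in WT 3 and WT 4, at 1.84 and 2.05 CPM in WT 1 and WT 2 and at 1.28 CPM or less in TET2-KO libraries, with -5.53 and -4.64. These 3 genes held.

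Prnp, the prion protein gene, and Hspa1b, an inducible Hsp70 gene, had WT 1 and WT 2 far below WT 3 and WT 4. Prnp was at 4.22, 6.49, 17.3 and 26.2 CPM in WT and at 4.47 to 6.71 CPM in TET2-KO libraries, so that WT 1 and WT 2 lay at the TET2-KO level. Hspa1b was at 1.03, 1.22, 51.2 and 116 CPM in WT and at 11.3, 7.29, 3.38 and 3.51 CPM in TET2-KO libraries. WT 1 and WT 2 of Hspa1b lay below every TET2-KO library, and WT 3 and WT 4 above every one. Its log2 fold change of -3.73 (SE 0.52, unadjusted p = 0.000118) against WT 3 and WT 4 stood beside -2.74 (SE 1.26, unadjusted p = 0.0567) against all. Hspa1b shares most of its sequence with Hspa1a, which was also highest in WT 3 and WT 4 (9.21 and 28.4 CPM), so the counts of either copy are uncertain. By the rule above both Prnp and Hspa1b held.

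DESeq2's smallest adjusted p-values named 4 more protein-coding genes of low level. Comp, an extracellular matrix protein of cartilage, was at 1.501 CPM or less in WT and at 2.53 to 8.76 CPM in TET2-KO libraries, and Evc, a protein of the primary cilium, was at 0.500 CPM or less and at 1.14 to 8.03 CPM. Spire1, an actin nucleator, was at 0.809 to 2.05 CPM in WT and at 4.18 to 7.11 CPM in TET2-KO libraries. Spin2c, a spindlin gene of the X chromosome that has near copies, was at 1.37 to 2.97 CPM in WT and at 0.239 CPM or less in TET2-KO libraries. All 4 held in edgeR's fit against WT 3 and WT 4, with log2 fold changes of 2.72, 3.33, 1.36 and -3.91, and DESeq2 still called Comp of them at an adjusted p of 0.00195 without WT 1 and WT 2.

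Because TET2 acts on methylated CpG, the bases before the start of the genes that carry these results are shown. RefSeq promoters (GRCm38.p6) were matched by symbol for 58 of all 75 named genes. The 250 bases before the annotated start are printed 5′ to 3′ on the strand of the gene, with each CpG in capitals. Gimap7 and Gimap6 are shown as the Gimap genes that lay lowest.
Gimap7: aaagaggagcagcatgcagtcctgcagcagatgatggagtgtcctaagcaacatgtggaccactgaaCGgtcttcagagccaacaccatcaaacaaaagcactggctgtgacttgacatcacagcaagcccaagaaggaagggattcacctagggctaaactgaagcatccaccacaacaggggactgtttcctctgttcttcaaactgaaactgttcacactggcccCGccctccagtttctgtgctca
Gimap6: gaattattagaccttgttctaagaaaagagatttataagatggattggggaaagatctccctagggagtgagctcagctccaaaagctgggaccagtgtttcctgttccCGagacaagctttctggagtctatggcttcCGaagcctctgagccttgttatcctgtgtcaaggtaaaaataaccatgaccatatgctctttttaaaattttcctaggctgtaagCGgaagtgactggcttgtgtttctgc
Slamf6, Pdcd1lg2 and Epcam are shown as lower surface molecules.
Slamf6: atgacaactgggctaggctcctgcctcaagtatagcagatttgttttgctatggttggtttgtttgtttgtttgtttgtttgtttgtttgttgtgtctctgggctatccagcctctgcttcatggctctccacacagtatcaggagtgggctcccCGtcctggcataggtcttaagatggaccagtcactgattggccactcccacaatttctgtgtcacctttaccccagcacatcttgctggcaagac
Pdcd1lg2: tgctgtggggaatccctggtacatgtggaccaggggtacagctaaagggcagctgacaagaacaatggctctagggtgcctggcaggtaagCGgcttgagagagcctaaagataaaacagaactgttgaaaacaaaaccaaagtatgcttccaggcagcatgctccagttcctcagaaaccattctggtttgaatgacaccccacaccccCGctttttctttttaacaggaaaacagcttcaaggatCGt
Epcam: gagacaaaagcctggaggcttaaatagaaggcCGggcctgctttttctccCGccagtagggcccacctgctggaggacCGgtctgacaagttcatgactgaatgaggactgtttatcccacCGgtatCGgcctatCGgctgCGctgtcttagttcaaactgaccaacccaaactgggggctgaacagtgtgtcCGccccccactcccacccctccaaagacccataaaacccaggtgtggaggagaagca
Tubb3 and Nt5e are shown as genes that lay higher.
Tubb3: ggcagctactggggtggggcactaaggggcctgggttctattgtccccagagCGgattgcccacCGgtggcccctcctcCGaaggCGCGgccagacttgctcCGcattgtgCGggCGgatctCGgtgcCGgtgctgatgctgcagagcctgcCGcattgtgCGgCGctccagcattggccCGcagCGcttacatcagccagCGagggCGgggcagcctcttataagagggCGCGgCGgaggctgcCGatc
Nt5e: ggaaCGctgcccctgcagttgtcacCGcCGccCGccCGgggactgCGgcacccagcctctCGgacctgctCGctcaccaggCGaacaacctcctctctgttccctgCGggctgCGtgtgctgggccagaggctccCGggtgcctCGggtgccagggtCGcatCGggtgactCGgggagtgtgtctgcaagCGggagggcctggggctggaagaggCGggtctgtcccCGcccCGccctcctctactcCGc
The windows lie at chr6:48718371-48718620, chr6:48708245-48708494, chr1:171917212-171917461, chr19:29410669-29410918, chr17:87635729-87635978, chr8:123411303-123411552 and chr9:88327359-88327608, the second on the minus and the others on the plus strand. The motif searched was CG, which reads the same on both strands, and the median of all 32851 promoter windows was 6 CG. Slamf6 had 1 CG, and 18.8% of all windows held that few or fewer. Gimap7 had 2, a number that 29% of windows did not exceed, and Gimap6 and Pdcd1lg2 had 3 each, which 37.8% did not exceed. Epcam had 8 CG, and 43% of windows held at least as many. Tubb3 and Nt5e had 21 CG each, which 16.3% of windows reached. The windows shown do not stand for all genes of their direction. Over the named genes with a window, and with the mean taken where a gene had several, the 17 genes that lay higher had 2 to 51 CG with a median of 14, and the 41 that lay lower had 0 to 25 with a median of 4.5. This tally takes genes by their sign against all WT libraries, whether or not they held. The 51 CG belong to Tet2, the deleted gene itself, which was named whatever its change and overlapped between the groups. Of the higher genes 3 had fewer than 6 CG, among them Grap2 with 2 and Csf2rb2 with 3, and of the lower genes 15 had more than 6, among them Prnp with 17, Srms with 9 and Spin2c with 9. These counts describe the reference sequence, and methylation was not measured in these libraries.

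Tet2 itself was at 7.82, 10.9, 26.0 and 18.7 CPM in WT and at 20.9, 19.9, 17.3 and 28.6 CPM in TET2-KO libraries, and the groups overlapped. Its log2 fold change was 0.45 (SE 0.35, unadjusted p = 0.227) and turned to -0.0545 (SE 0.25, unadjusted p = 0.835) against WT 3 and WT 4. The counts cover the whole gene and not the deleted exons alone, so they do not check the genotype. Of the 17 measured genes of the TET, DNMT and linked enzyme list, which holds the writers and erasers of DNA methylation and related enzymes, 0 had an unadjusted p under 0.05 in edgeR's test against all WT libraries and 2 against WT 3 and WT 4, and DESeq2 called 0. Tet3 had a log2 fold change of 0.43 and Dnmt3a of 0.41, and 0.14 and 0.15 against WT 3 and WT 4, with overlap between the groups.

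The 13 genes of the heatmaps of the study that are not V genes all lay lower in TET2-KO B-1a cells. None overlapped between the groups, and 2.38% of all members tested lay below WT without overlap. The study chose them on these samples, so their direction is not independent evidence. Their median log2 fold change was -1.21, beside 0.03 over all members tested, and -0.77 against WT 3 and WT 4, where the median of all members was 0.03 again. Of the 13, 9 held, beside 22.5% of the 944 members with an unadjusted p under 0.05 against all WT libraries in edgeR. Il2rg, Cd48 and Tnfrsf18 were among those that did not.

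Slamf7, a receptor of the SLAM family, was at 110, 73.1, 56.6 and 48.1 CPM in WT and at 24.3, 38.7, 20.1 and 16.4 CPM in TET2-KO libraries. The difference was -1.54 on the log2 scale (SE 0.32) and -1.08 (SE 0.32, unadjusted p = 0.0104) without WT 1 and WT 2, and it held. Cd48, the ligand of another SLAM receptor, had -0.41 and -0.23 and did not hold. The lectin genes Cd209a and Mgl2, which dendritic cells also use, had -1.69 and -1.57, and -1.40 and -1.68 without WT 1 and WT 2, and both held. The MHC class II genes H2-DMb2, a chain of the peptide exchange factor DM, and H2-Eb2 had -0.68 and -1.21 and held at -0.42 and -0.77.

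Il2rg, the common gamma chain of several interleukin receptors, was at 1818, 1382, 967 and 1020 CPM in WT and at 830, 719, 781 and 534 CPM in TET2-KO libraries. WT 1 and WT 2 lay furthest from TET2-KO, and the log2 fold change went from -0.86 (SE 0.23) to -0.48 (SE 0.21, unadjusted p = 0.0539) without them. Cd55, which protects cells from complement, had -0.99 and held at -0.62. Tnfrsf18, which encodes the costimulatory receptor GITR, had -0.56 and -0.63 (unadjusted p = 0.0544).

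Gene lists of the pathways of these cells were described by their members, with no test of a list, and their counts stand beside 3.22% lower and 3.7% higher of all members at an unadjusted p under 0.05, and beside 1.6% and 0.952% against WT 3 and WT 4. Of the 11 SLAM receptors and adaptors, 3 were lower and 0 higher at an unadjusted p under 0.05, with a median log2 fold change of -0.09, and without WT 1 and WT 2 the count was 2 and the median -0.16. Slamf1, Ly9 and Cd84 had 0.23, -0.64 and -0.09 with overlap between the groups, and 0.51, -0.32 and -0.27 without WT 1 and WT 2. Of the 11 MHC class II genes, 9 lay lower and 4 had an unadjusted p under 0.05, and 3 without WT 1 and WT 2, where the median of -0.38 became -0.21. The abundant class II genes Cd74, H2-Aa and H2-Ab1 had -0.38, -0.33 and -0.33, each overlapping between the groups, and -0.26, -0.21 and -0.19 without WT 1 and WT 2. Of the 13 C-type lectins, 5 were lower and Clec2d was higher at an unadjusted p under 0.05, and of these 4 and Clec2d held. Clec2d had 1.14 and 1.04.

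B-2 markers gave 5 of 10 members lower at an unadjusted p under 0.05, and 3 of 10 without WT 1 and WT 2. Ccr7, Fcer2a and Cr2 had log2 fold changes of -2.35, -4.31 and -2.82. Without WT 1 and WT 2 these were -1.24, -1.29 and -0.67, and Ccr7 and Fcer2a held while Cr2 did not (unadjusted p = 0.125). Their median went from -0.78 to -0.44. Of the 15 B-1 markers, 13 lay higher, 0 at an unadjusted p under 0.05, and the median of 0.49 became 0.06 without WT 1 and WT 2. Dendritic cell markers had a median of -0.91 over 7 members and -0.93 over 9 without WT 1 and WT 2, with Itgax, Xcr1, Clec9a and Siglech under 1 CPM in all 8 libraries. All 5 erythroid genes tested had an unadjusted p under 0.05, and 4 without WT 1 and WT 2. Hbb-bs was at 578, 332, 4.42 and 96.1 CPM in WT and 0.725 to 9.68 CPM in TET2-KO libraries, so the groups overlapped at WT 3.

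For most of the following lists of cell function, fewer members had an unadjusted p under 0.05 without WT 1 and WT 2. Homing and adhesion genes gave 4 of 19 lower and, without these libraries, 2 of 20. Among the 4 were Ccr6 and Gpr183, the oxysterol receptor, which had -0.87 and did not hold (-0.27, unadjusted p = 0.111). B cell receptor signaling gave 4 of 27 lower, and 1 lower and 1 higher without WT 1 and WT 2. Complement regulators gave 2 of 10 lower and then 1 of 11. Cytokine receptors gave 4 of 19 lower and 1 higher, and then 0 lower and 1 higher. Costimulation genes gave 3 of 17 lower and then 1 of 18. Of 26 B cell transcription factors 2 were lower, namely Runx3 and Pou2af1, with -0.74 and -0.77, and neither held (-0.29 and -0.41). Of 23 genes of the plasma cell and secretion list only Jchain, the joining chain of IgM and IgA, had an unadjusted p under 0.05, with -1.81, and it held at -1.65.

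Proliferation genes had 18 of 20 members lower with 0 at an unadjusted p under 0.05, and a median of -0.48 that was -0.21 without WT 1 and WT 2. Of 21 survival and death genes, 1 was higher and 2 lower, and 0 in either direction without WT 1 and WT 2 in edgeR. Bcl2l11, which encodes the death promoting protein BIM, was at 13.5 to 22.1 CPM in WT and at 40.2, 42.4, 42.1 and 11.04 CPM in TET2-KO libraries. The log2 fold change of 0.997 did not hold (1.06, unadjusted p = 0.0703), and TET2-KO 4 lay below every WT library. Interferon response genes had 1 of 28 higher, namely Mx1 with 1.18, which held at 1.14, and a median of 0.09 that was 0.35 without WT 1 and WT 2. Heat shock genes had 1 of 13 in each direction and, without WT 1 and WT 2, 3 of 14 lower and 0 higher. Immediate early genes had 1 of 21 lower and then 2. Ribosomal protein genes (82 tested) and mitochondrially encoded genes (19 tested) had 0 at an unadjusted p under 0.05 and medians of 0.04 and 0.07, and again 0 without WT 1 and WT 2, with medians of 0.09 and 0.08.

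Of all 75 named genes, 55 held against WT 3 and WT 4. Of those not yet placed, H2-Oa, Bag3, Cd209b, Hbb-bs, Hbb-bt and Hba-a2 held, and Flt3, Casp8, Cd81, Icosl, Hspb1, Bmf, Ifngr2, Cd8b1 and Cd69 did not. Of the list members named above for their values, Tet3, Dnmt3a, Cd274, Xbp1, Slamf1, Ly9, Cd84, Cd74, H2-Aa and H2-Ab1 did not hold either.

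Chemosensory and neurotransmitter receptors and noncoding genes had medians that depended on the WT libraries used. The 39 olfactory receptors tested had a median log2 fold change of 1.25 against all WT libraries and 0.28 over the 112 tested against WT 3 and WT 4, and the vomeronasal receptors had 0.98 and 0.18. The 12 receptors for GABA, glutamate, glycine and acetylcholine all lay higher, with a median of 1.05 that was 0.03 without WT 1 and WT 2. Of 1238 lncRNA genes 934 lay higher, with 116 higher and 22 lower at an unadjusted p under 0.05 and a median of 0.46, and without WT 1 and WT 2 the median was 0.18 with 22 higher and 42 lower of 1603. The protein-coding genes had medians of 0.00 and 0.01.

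**Figure D4:**
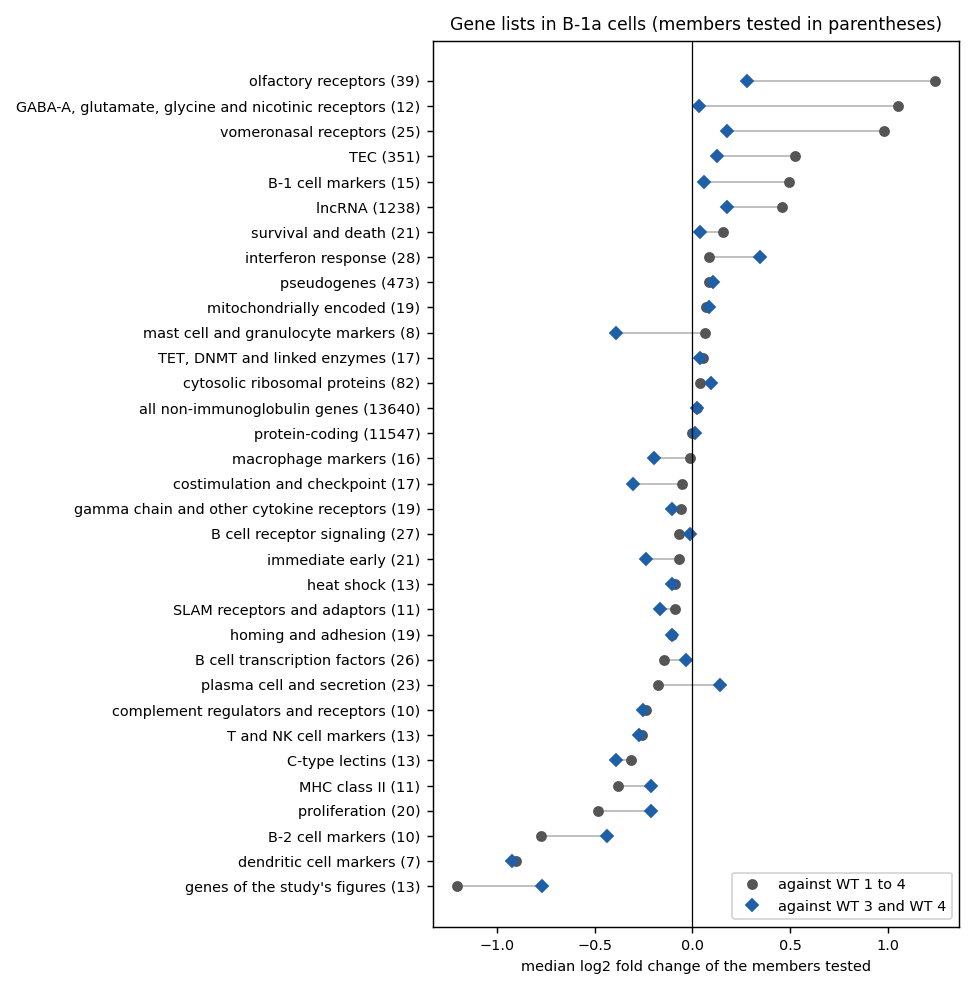
Median log2 fold change of TET2-KO against WT in B-1a cells for each gene list and gene type, with the number of members tested against all WT libraries in parentheses, against WT 1 to WT 4 (gray) and against WT 3 and WT 4 (blue). Erythroid genes, at -6.34 and -4.01, are outside the range shown, and the olfactory, vomeronasal and neurotransmitter receptor lists shift from about 1 toward 0 when WT 1 and WT 2 are left out.

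The same comparison was available in B-1b cells, in 3 TET2-KO and 4 WT libraries that did not enter the choice of genes. The labels do not say whether B-1a and B-1b libraries of a number came from the same mouse, and the B-1b WT libraries include WT 2 with its B-2 level of Fcer2a. Genes with a count numbered 18074 and 19255 in B-1b WT 1 and WT 2, 25898 and 27677 in WT 3 and WT 4, and 17816 in TET2-KO 3. Olfactory receptors held 6.63 and 6.39 CPM in B-1b WT 1 and WT 2, and 177 and 275 CPM in WT 3 and WT 4. The B-1b fit used all 4 WT libraries and was not repeated without WT 1 and WT 2. In B-1b cells 463 members (3.29%) were higher and 249 (1.77%) lower at an unadjusted p under 0.05 among 14070 tested, and 0 passed edgeR's adjusted p. All 24 genes that separated the groups in B-1a cells had the same sign in B-1b cells, as did 67.6% of all members tested in both, and 15 of the 24 had the same sign with an unadjusted p under 0.05, beside 4.80% of all members. These 15 were 8 of the 12 higher and 7 of the 12 lower genes. Of the 16 genes chosen against WT 3 and WT 4, 14 had the same sign as in the B-1a fit with all WT libraries and 10 of these an unadjusted p under 0.05, with Bag2 at -0.11 and Tubb2b at 0.10 in B-1b cells as the exceptions. Epcam had -2.19 in B-1b cells and Sp140l2 1.54, Prr5 had -0.72 and Anxa2r1 1.44. Of the 13 genes of the study's heatmaps, 13 had the same sign and 8 an unadjusted p under 0.05.

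An interaction term tested whether the change with genotype was unequal in the 2 B-1 subsets. With edgeR 0 of 15643 members passed after adjustment, 162 (1.04%) had an unadjusted p under 0.05, and DESeq2 called 0. Among the named genes 6 had an unadjusted p under 0.05, all with a more negative log2 fold change in B-1a than in B-1b cells. Among these, Slamf6 differed by -0.89, Srms by -1.02, Gpr34 by -1.89, Runx3 by -0.93 and Ccr6 by -2.50 on the log2 scale, at unadjusted p-values of edgeR from 0.0155 for Slamf6 to 0.0447 for Ccr6. Without WT 1 and WT 2 of both subsets these differences were -0.43 for Slamf6 (unadjusted p = 0.214), -0.83 for Srms (0.0179), -0.29 for Gpr34 (0.643), -0.38 for Runx3 (0.33) and -0.45 for Ccr6 (0.602), so Srms alone of these 5 kept an unadjusted p under 0.05. Other named genes with an unadjusted p of edgeR under 0.05 in that fit went in both directions. Sp140l2 (0.62, unadjusted p = 0.0405) and Tubb2b (0.84, 0.0253) had a higher log2 fold change in B-1a cells, and Prnp (-0.94, 0.0479) a lower one. Epcam, at -1 on the log2 scale (SE 0.49, unadjusted p = 0.0622) in that fit, lay further apart between the subsets than with all libraries. In both fits the smallest adjusted p of edgeR among the named genes was 0.9999, so no named gene is shown to differ between the subsets. Srms was at 17.1 to 19.0 CPM in TET2-KO B-1b and 9.46 to 28.0 CPM in WT B-1b libraries.

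**Figure D5:**
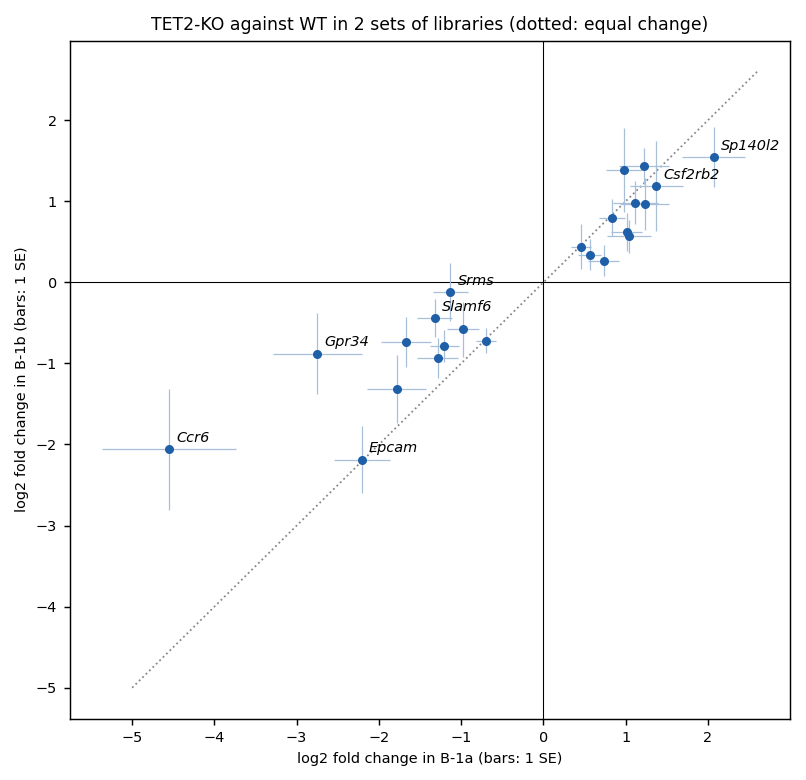
Log2 fold change of TET2-KO against WT in B-1b cells (vertical axis) beside that in B-1a cells (horizontal axis), with bars of 1 standard error, against all WT libraries, for the reported genes among the 24 that separated the groups in B-1a cells, and the dotted line marks equal change. All points lie in the quadrants of equal sign, with Epcam near the line and Ccr6, Gpr34, Slamf6 and Srms nearer to 0 in B-1b cells, where without WT 1 and WT 2 the differences of Ccr6, Gpr34 and Slamf6 shrink to between -0.45 and -0.29 and Epcam leaves the line by -1.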

How the data were processed

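The authors deposited raw fragment counts per gene for each library. According to the file headers and the submitters' notes, reads were trimmed with fastp, aligned to GRCm39 with STAR and counted with featureCounts 1.6.1 on GENCODE vM32, as pairs and without regard to strand, so a gene and an antisense gene on the same bases cannot be told apart. The labels describe poly-T selection with random hexamer priming, whereas the study's methods describe full-length cDNA from total RNA. Symbols and gene types came from GENCODE vM39 for 56310 of 56953 genes.

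The test was the quasi-likelihood test of edgeR 4.0.16 in R 4.3.3, fitted robustly after TMM normalization and filterByExpr by group, with p-values adjusted by Benjamini-Hochberg over all 13923 genes passing the filter, immunoglobulin genes included; 7 passed, of which 6 were immunoglobulin genes. CPM values use TMM library sizes. DESeq2 1.42.0, voom of limma 3.58.1 with quality weights, other normalizations and filters, and leaving out each library were alternatives. The scripts were tested on counts with known changes. The members and gene lists were chosen with earlier results of these data known. Named genes are Tet2, the study's 13 heatmap genes that are not V genes, every gene past the threshold, the 12 protein-coding genes per direction with the smallest p, at least 5 CPM and no overlap, the same for 8 per direction against WT 3 and WT 4, the 5 per direction with DESeq2's smallest adjusted p, and up to 3 list members with an unadjusted p under 0.05. Neighbors of Gm2619 and the other Gimap genes were added after values were seen, as were list members given as values. Promoter windows were counted for CG after their values were seen. Of 210 pairs of libraries, 0 held identical counts. Results of some of the named genes are not reported here.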

Additional observations from a re-analysis of the deposited data

Results flagged for a closer look

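For 18 of 150 groups of 4 libraries, over the named genes on the scale of log2 of CPM + 0.1, 1 library stood apart from the other 3, where chance alone would set it apart in about 1 in 20 groups. WT 1 stood apart for Fcer2a (754 CPM), Ccr7 (999 CPM), Flt3 (55.6 CPM), Gimap7 (309 CPM) and Lax1 (113 CPM) on the high side and for Sp140l2 (6.56 CPM) and Bag3 (4.72 CPM) on the low side. WT 2 stood apart for Rp2 (44.1 CPM).

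TET2-KO 4 stood apart for Rundc3a (16.8 CPM), Grap2 (102 CPM) and Evc (8.03 CPM) on the high side, and for Bcl2l11 (11.04 CPM), Casp8 (74.4 CPM), Cd48 (335 CPM) and Pou2af1 (177 CPM) on the low side. TET2-KO 3 stood apart for Epcam (20.2 CPM) and Clec2d (16.8 CPM), and TET2-KO 1 for Hbb-bt (1.55 CPM). The weights that limma gave the libraries were 0.188 for TET2-KO 4, 0.434 for WT 1 and 0.64 for WT 2, and 1.19 to 2.26 for the other 5.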

How the results depend on the processing

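The number of non-immunoglobulin genes past the threshold in B-1a cells, 1 in edgeR, was 93 with DESeq2 (41 higher and 52 lower), 47 with DESeq2 without WT 1 and WT 2 (11 and 36; an alternative chosen after seeing the data), 22 with limma voom and sample quality weights (8 and 14), 249 with no filter on low counts (97 and 152), 8 with the replicate block (1 and 7) and 0 in edgeR without WT 1 and WT 2. Leaving out 1 library at a time gave 0 to 3 calls, with 3 only without WT 1. It stayed at 1 with RLE factors, with TMM without immunoglobulin genes, with at least 10 counts in every library and without robust estimation. The number for the B-1a effect minus the B-1b effect was 37 with no filter (10 and 27) and 0 in all other fits. The cause of these differences was not tested. The median log2 fold change over all members was 0.03 in edgeR and 0.28 with DESeq2, which covered 37647 members with a count.

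Signs changed for Tet2, at -0.0545 without WT 1 and WT 2 in edgeR and -0.05 in DESeq2, and for Tubb2b, at 0.90 in both of these fits, 0.41 with quality weights, 0.15 with the replicate block and between -0.44 and 0.59, the latter without WT 2, when 1 library was left out; no other named gene changed sign in any alternative. The deviations of same-numbered libraries from their group means correlated at 0.176, -0.082, -0.006 and -0.052. These values cannot decide whether the replicate numbers pair the libraries, since WT 1 and WT 2 go against their label.

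Limits: WT 1 and WT 2 go against the label, and without them 2 WT libraries carry the comparison. TET2-KO 4 and these 2 had fewer genes with a count. Low genes such as Evc, Comp and Spin2c rest on few fragments.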
